A study of Condylura cristata and Mus musculus with 12 samples.

Results

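Heat shock proteins and the DnaJ proteins that work with them were followed through the ganglia of the star-nosed mole and the mouse. A gene was a member if its symbol began with Hspa, Hspb, Hspd, Hspe, Hsph, Hsp90, Dnaja, Dnajb or Dnajc followed by a number (or, for Hsp90, by any ending), whatever its counts. By this rule 78 of 33773 rows of the mole table and 70 of 26125 rows of the mouse table were members. The 70 mouse members were all in the mole table too, and the 8 found in the mole table alone were the heat-inducible Hspa6 and 7 rows named after human pseudogenes. Poly-A RNA was sequenced from trigeminal ganglia (TG), which innervate the face and the mole's star, and from dorsal root ganglia (DRG), which innervate the rest of the body. The mole groups were 3 TG and 3 DRG samples of wild adult males, and the mouse groups were 2 samples labelled TG and 2 labelled DRG of adult C57BL/6 females. No animal was treated, per the labels. One more mouse sample of each ganglion was not analysed here. Per the study's methods, 1 mole DRG sample came from 2 animals. Species therefore differ in sex as well, and p-values set a difference against the spread between these samples within their groups. The first library of each mole ganglion (mole TG 1, mole DRG 1) was prepared with a Genomic Sample Prep kit, and all other libraries with the TruSeq kit.

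Chaperones of the Hsp70 family bind unfolded stretches of protein and release them through cycles of ATP hydrolysis. J proteins, encoded by the Dnaja, Dnajb and Dnajc genes, bring clients to Hsp70 and start ATP hydrolysis, and Hsp110 proteins exchange its nucleotide. Hsp90 acts on proteins that are nearly folded, the small heat shock proteins hold unfolded proteins without ATP, and Hspd1 with Hspe1 forms the folding chamber of mitochondria. Heat shock factor 1 induces some members under proteotoxic stress and the unfolded protein response induces others in the endoplasmic reticulum, while most are made constitutively. Sensory neurons use constitutive members at the synapse and in vesicle recycling, where auxilin (Dnajc6) and Hspa8 strip the clathrin coat from vesicles. The stress-induced members were kept apart here: 9 genes induced by heat shock factor (Hspa1a, Hspa1b, Hspa6, Hsph1, Hsp90aa1, Dnaja1, Dnajb1, Dnajb4 and Hspb1) and 6 induced by the unfolded protein response (Hspa5, Hsp90b1, Dnajb9, Dnajb11, Dnajc3 and Dnajc10). The other 56 members with a working gene were listed as constitutive. These classes were assigned and not measured here, and a member listed as constitutive may also respond to stress. Sums and counts by class hold for this listing.

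Library totals ran from 8409670 to 92323879 counts in the mole and from 90548941 to 147076817 in the mouse, and members took 0.964 to 1.91% of the counts of a mole library and 1.29 to 1.49% of a mouse library. Mole TG 1 and mole DRG 2 stood apart from the libraries of their own ganglion. The rank correlation of mole TG 1 with mole TG 2 and 3 over genes was 0.866 and 0.855, against 0.974 between the latter. Mole TG 1 was about as close to mole DRG 1, 2 and 3, at 0.862, 0.857 and 0.823. Mole DRG 2 had 0.919 and 0.9 with mole DRG 1 and 3, against 0.97 between those. The mouse labels went against the Hox genes, which mark body levels behind the head. Over 10 Hox genes the summed level was 16 to 19.7 CPM (counts scaled to the size of the library) in mole TG and 176 to 192 in mole DRG. In the mouse it was 86.1 to 91.2 CPM in the libraries labelled TG and 4 to 4.61 CPM in those labelled DRG. Mouse libraries are therefore called by their label throughout. Hoxd1, which is not among the 10 and was added after its values were seen, was at 22.8 and 21.2 CPM in the libraries labelled TG and at 21.3 and 44.7 CPM in those labelled DRG, without a call (log2 -0.58, edgeR adjusted p 0.456). In the mole it was at 9.03 to 14.7 CPM in the TG and 34.5 to 62.4 CPM in the DRG (log2 -2.11, edgeR adjusted p 0.0113). Groups were kept as labelled, and every mouse direction below holds for the labels as given. Both species expressed the sensory neuron markers, with sums over 9 genes of 7770 to 10300 CPM in the mole and 7300 to 10100 CPM in the mouse.

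Several families carry short signatures in their coding sequence that tell where and how a member works, and they are shown from the mouse genes (GENCODE M21, GRCm38), since no mole sequence was used. The last bases of the coding sequence are given first, with the stop codon at the end and the final 4 codons in capitals. These codons spell EEVD in cytosolic Hsp70 and Hsp90, the tail that docks cochaperones, or KDEL, the signal that keeps a protein in the endoplasmic reticulum.
Hspa1a (chr17:34970000-34970029, minus strand): tcaggacccaccatcGAGGAGGTGGATtag
Hspa1b (chr17:34957079-34957108, minus strand): tcaggacccaccatcGAGGAGGTGGATtag
Hspa8 (chr9:40805088-40805117, plus strand): tcaggccccaccattGAAGAGGTGGATtaa
Hsp90aa1 (chr12:110691540-110691569, minus strand): gacacatcacgcatgGAAGAAGTAGACtaa
Hsp90ab1 (chr17:45568015-45568044, minus strand): gatgcctcgcgcatgGAAGAGGTGGATtaa
Hspa5 (chr2:34776084-34776113, plus strand): gaggatacatcagaaAAAGATGAGTTGtag
Hsp90b1 (chromosome 10, minus strand, split by an intron): aaggaatctacagagAAGGATGAATTGtaa
Dnajc10 (chromosome 2, plus strand, split by an intron): caagtaaaaagaaatAAGGATGAGCTTtga
The last coding bases of Hspa1a and Hspa1b were letter for letter the same, and 1636 of the 1891 windows of 36 bases in the Hspa1a coding sequence also occurred in Hspa1b. Reads of this pair could be split between them in either way, so the pair is best read together. Of the 70 mouse members, 7 ended in EEVD and 3 in KDEL, and Dnajc10 was the only J protein with a KDEL end.

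The J proteins share a tripeptide of histidine, proline and aspartate (HPD) that is needed to start ATP hydrolysis by Hsp70. It was encoded by 42 of 43 J genes, Dnajb13 being the exception, and by 0 of 27 other members. The codons are shown in capitals, with the bases on either side, for J genes that differed between the mole ganglia.
Dnajc6 (chromosome 4, plus strand, split by an intron): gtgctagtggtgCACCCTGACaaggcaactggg
Dnaja1 (chr4:40723800-40723832, plus strand): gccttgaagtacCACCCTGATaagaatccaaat
Dnajc13 (chr9:104186717-104186749, minus strand): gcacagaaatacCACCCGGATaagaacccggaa
Dnajc10 (chromosome 2, plus strand, split by an intron): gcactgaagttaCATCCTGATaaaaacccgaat
Dnajc12 (chr10:63395818-63395850, plus strand): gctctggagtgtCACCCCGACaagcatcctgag
Dnajc27 (chr12:4106833-4106865, plus strand): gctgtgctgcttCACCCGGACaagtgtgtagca
Dnajb2 (chr1:75237468-75237500, plus strand): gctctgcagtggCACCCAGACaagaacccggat
The tripeptide began at residue 34 of 397 in Dnaja1, at 864 of 900 in Dnajc6, at 1332 of 2243 in Dnajc13 and at 245 of 273 in Dnajc27. The J domain thus lies at the start of the protein in Dnaja1, near the end in Dnajc6 and Dnajc27, and inside the protein in Dnajc13.

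In the mole, the Hsp70 and Hsp110 genes Hspa8, Hspa4 and Hspa14 and J genes such as Dnajc6 and Dnaja1 were higher in the DRG, while the small heat shock genes Hspb1, Hspb6, Hspb2 and Hspb7 were higher in the TG. The Hspb calls, and those of Dnaja1, Hspa4 and Hspa14, were lost when a trend on base composition was taken out. Of the 75 members that passed the filter on low counts, edgeR's quasi-likelihood test called 7 higher in the TG and 15 higher in the DRG (adjusted p under 0.05 over all genes). Of all 18078 genes tested, 10.5% were called for the TG and 12.9% for the DRG. The median log2 fold change, TG over DRG, was -0.37 over the members and 0.11 over all genes. Every TG library was above every DRG library for 14 members, against 21.7% of all genes, and every DRG library was above every TG library for 20, against 22.4%. Constitutive members summed to 5020 to 7890 CPM in the TG libraries and 9690 to 11700 CPM in the DRG libraries, with no overlap. Without Hspa8 and Hsp90ab1, which made up much of these sums, the range was 2500 to 3600 CPM in the TG and 3270 to 4240 CPM in the DRG, and the ganglia overlapped. The fitted change was above 0 for 23 and below 0 for 30 of the 53 constitutive members that passed the filter, with a median of -0.19. Stress-induced members summed to 7200, 4140 and 3170 CPM in mole TG 1, 2 and 3 and to 4950, 5620 and 4360 CPM in mole DRG 1, 2 and 3, so that mole TG 1 was the highest of all 6 and the ganglia overlapped. Hsp90aa1 made up much of these sums, with 4210 CPM in mole TG 1 and 3680 CPM in mole DRG 2. The overlap of the sums therefore need not hold for the other stress-induced members. The fitted change was above 0 for 4 and below 0 for 11 of the 15 stress-induced members, with a median of -0.32. In bulk tissue, fewer cells that express a gene and less RNA per cell cannot be told apart. The plot of called members shows each library.

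**Figure D1:**
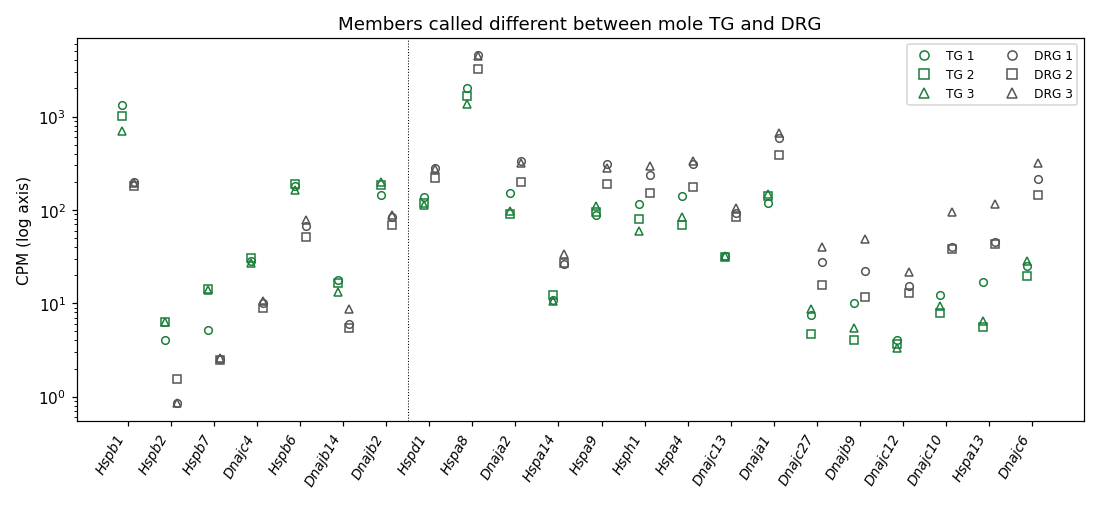
CPM on a log axis (vertical) of the 22 members called between the mole ganglia (horizontal, in order of log2 fold change), 1 point per library: green for TG, grey for DRG, shapes for replicates 1, 2 and 3. The dotted line divides the 7 members higher in TG from the 15 higher in DRG, and the libraries of the ganglia do not overlap for any of the 22.

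The number of calls depended on single libraries. Leaving out mole TG 1 and mole DRG 2 together gave 18 members higher in the TG and 32 higher in the DRG, but the calls over all genes rose with them, to 33.3% and 29.9%. Without mole TG 1 alone there were 9 and 28 members (12% and 18.8% of all genes). Without mole DRG 2 alone there were 8 and 22 (18.5% and 18.2%). There were 1 to 2 and 2 to 4 members when replicate 2 or 3 of the TG, or replicate 1 or 3 of the DRG, was left out, with 1.05 to 2.11% and 1.07 to 2.44% of all genes. Dnajc6, Dnaja1 and Hspb1 were called in each of the 6 fits that left out 1 library, and every other called member lost its call in at least 1 of them. The TruSeq libraries alone gave 6 and 18 (4.76% and 10.2%), and the kit as a covariate 6 and 16 (10% and 12.5%). Of 9 sensory neuron markers, 2 were called, both higher in the DRG like the 15 members: Scn10a at 71.8, 22.9 and 29.3 CPM in mole TG 1, 2 and 3 and 654, 348 and 584 CPM in mole DRG 1, 2 and 3 (log2 -3.68, edgeR adjusted p 0.00817), and Calca at 131, 73.9 and 87.7 against 729, 731 and 1000 CPM (log2 -3.08, edgeR adjusted p 0.00756). Over the 9 markers the median log2 fold change was -0.55. The part of the neuron types that express them in the member differences was not tested.

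Hspb1 (Hsp27), an inducible small heat shock protein that protects sensory neurons and their axons after injury, had the largest rise in the TG. It stood at 1340, 1010 and 704 CPM in mole TG 1, 2 and 3 and at 200, 181 and 193 CPM in mole DRG 1, 2 and 3. The lowest TG library was far above the highest DRG library, and the DRG libraries were close together. The change was 5.32-fold (log2 2.41, SE 0.3, edgeR adjusted p 0.0077). Hspb6 (Hsp20), a partner of Hspb1 that is abundant in muscle, was at 182, 189 and 164 CPM in the TG libraries and 67.2, 50.7 and 77.8 CPM in the DRG libraries. Its values were tight within each ganglion, and the difference was 2.73-fold (log2 1.45, SE 0.26, edgeR adjusted p 0.0123).

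Hspb2 and Hspb7, small heat shock proteins of heart and skeletal muscle, were far scarcer. Hspb2 was at 4.03, 6.33 and 6.35 CPM in mole TG 1, 2 and 3 and at 0.855, 1.56 and 0.849 CPM in mole DRG 1, 2 and 3 (log2 2.37, SE 0.53, edgeR adjusted p 0.0206). Hspb7 was at 5.11, 14.1 and 13.8 CPM and at 2.56, 2.44 and 2.62 CPM (log2 2.11, SE 0.49, edgeR adjusted p 0.0238). Mole TG 1 was the lowest TG library for both genes, and still above every DRG library. Hspb8, which works with the cochaperone Bag3 in selective autophagy and was the most counted of the constitutive small members, was at 465, 282 and 208 CPM in the TG and 615, 353 and 548 CPM in the DRG. Its ganglia overlapped (log2 -0.67, edgeR adjusted p 0.213). The 6 constitutive small heat shock proteins thus gave 3 higher in the TG, 2 not called and 1, Hspb3, under the filter. Skeletal muscle markers moved with them: 8 of 16 were higher in the mole TG and 0 were lower, and their sum was 1870 to 4320 CPM in the TG against 797 to 1390 in the DRG. Markers of myelin and Schwann cells did too, with 6 of 8 higher in the TG and sums of 9530 to 11100 against 1780 to 3520 CPM. Markers of macrophages (3 of 7 higher in the TG, 168 to 270 against 45.4 to 70.4 CPM) and of the central nervous system (5 of 8, 707 to 1050 against 207 to 314 CPM) were also higher in the TG, with Aqp4 of the latter called the other way (log2 -2.02, edgeR adjusted p 0.0436), while those of endothelium were 1 higher and 1 lower of 8. No marker of these lists was at 0 in every library. The part of these cells in the Hspb differences was not tested.

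The other genes induced by heat shock factor did not move as 1 group. Of the 9, Hspb1 was higher in the TG, Dnaja1 and Hsph1 were higher in the DRG, and 6 were not called. Dnaja1 (Hdj2), the main J partner of cytosolic Hsp70, was at 120, 142 and 149 CPM in mole TG 1, 2 and 3 and at 595, 386 and 663 CPM in mole DRG 1, 2 and 3. The change was 4-fold (log2 -2, SE 0.29, edgeR adjusted p 0.00829), and even the lowest DRG library was well above the TG. Hsph1 (Hsp105), a nucleotide exchange factor of Hsp70, was at 117, 80.2 and 59.1 CPM in the TG and 234, 151 and 298 CPM in the DRG (log2 -1.42, SE 0.36, edgeR adjusted p 0.0305).

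The classical stress-inducible Hsp70 genes ran the other way without passing the test in the fit of all mole libraries. Hspa1a was at 121, 311 and 187 CPM in mole TG 1, 2 and 3 and at 119, 70.8 and 77.1 CPM in mole DRG 1, 2 and 3 (log2 1.22, SE 0.39, edgeR adjusted p 0.0588). Hspa1b was at 67.6, 180 and 93.9 CPM and at 61.1, 49.8 and 66.2 CPM (log2 0.95, SE 0.38, edgeR adjusted p 0.109). In both genes mole TG 2 was the highest library, and mole TG 1 was only just above mole DRG 1 or 3. Without mole TG 1, Hspa1a and Hspa1b were called for the TG (edgeR adjusted p 0.0229 and 0.0387), as were 12% of all genes. Hspa1a was also called with TruSeq libraries alone (edgeR adjusted p 0.0389) and with at least 10 counts in every library (0.0347). Neither gene was called when the trend on base composition was taken out. Hspa6, which humans have and mice lack, was at 0.672, 14.4 and 11.9 CPM in the TG and 2.18, 11.2 and 0.393 CPM in the DRG, a spread within each ganglion that left it uncalled (log2 1, SE 1.26). Some immediate early genes, which respond to handling as well as to activity, also differed. Of 8, 4 (Jun, Junb, Ier2 and Atf3) were higher in the mole TG and 0 were lower, with sums of 452 to 617 against 194 to 267 CPM. Jun made up much of the sums, at 220, 271 and 367 CPM against 124, 68.9 and 83 CPM. Fos (log2 -0.03, edgeR adjusted p 0.96), Fosb, Egr1 and Dusp1 were not called. The part of these genes in the levels of the inducible members was not tested.

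Hsp90aa1, the inducible Hsp90, was led by mole TG 1 and mole DRG 2. It was at 4210, 1710 and 1380 CPM in the TG and at 2520, 3680 and 1810 CPM in the DRG, with full overlap (log2 -0.13, SE 0.47, edgeR adjusted p 0.849). Dnajb1 (Hsp40), the inducible J partner of Hspa1a, was at 128, 95.2 and 67.4 CPM and at 126, 77 and 94.7 CPM (log2 -0.04, edgeR adjusted p 0.938). Dnajb4, a related J protein, was at 12.2, 8.37 and 5.83 CPM in the TG and at 18.4, 15.4 and 38.7 CPM in the DRG. Its libraries did not overlap, but the difference missed the threshold (log2 -1.46, SE 0.47, edgeR adjusted p 0.0583).

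**Figure D2:**
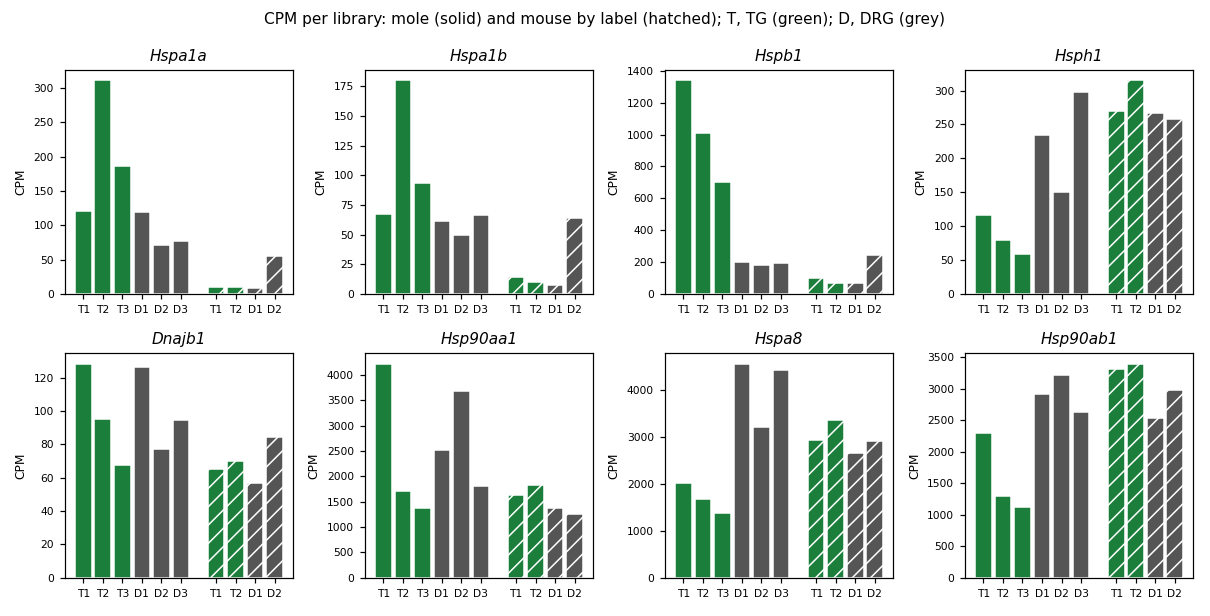
CPM (vertical, linear from 0, a scale of its own in each panel) of 6 genes induced by heat shock factor and of the constitutive Hspa8 and Hsp90ab1 in 10 libraries (T, TG; D, DRG; number, replicate; solid, mole; hatched, mouse by label). Hspb1 is high in the 3 mole TG libraries, Hspa8 and Hsp90ab1 are high in the 3 mole DRG libraries, and Hspa1a and Hspa1b reach 54.9 and 64.4 CPM in mouse DRG 2 against at most 14.2 CPM in the other mouse libraries.

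Of the 6 members induced by the unfolded protein response, 2 were higher in the mole DRG, 0 in the TG and 4 were not called. Dnajc10 (ERdj5), a J protein that also reduces disulfide bonds, was at 12.4, 7.82 and 9.31 CPM in mole TG 1, 2 and 3 and at 40, 38.6 and 94.6 CPM in mole DRG 1, 2 and 3. The difference was 5.89-fold (log2 -2.56, SE 0.45, edgeR adjusted p 0.0119). Dnajb9 (ERdj4), a J protein that keeps the stress sensor Ire1 silent, was at 10.1, 4 and 5.48 CPM in the TG and 22.3, 11.6 and 49.2 CPM in the DRG (log2 -2.1, SE 0.61, edgeR adjusted p 0.0426), and mole DRG 2 was only just above mole TG 1. Mole DRG 3 held the highest value of both genes.

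The abundant chaperones of the endoplasmic reticulum were not called. Hspa5 (BiP), its Hsp70, was at 300, 229 and 193 CPM in mole TG 1, 2 and 3 and at 448, 303 and 398 CPM in mole DRG 1, 2 and 3 (log2 -0.67, SE 0.28, edgeR adjusted p 0.113). Hsp90b1 (Grp94), its Hsp90, was at 656, 282 and 248 CPM and at 467, 547 and 467 CPM (log2 -0.32, edgeR adjusted p 0.565). Hspa5 did not overlap between the ganglia, while Hsp90b1 was highest in mole TG 1. Dnajb11 (ERdj3), a cofactor of Hspa5, was nearly level, at 58.8, 58.4 and 42.7 CPM against 63.9, 58.8 and 53.4 CPM (edgeR adjusted p 0.706). Dnajc3 (p58IPK), another cofactor of Hspa5, was at 37.4, 12.4 and 11.8 CPM in the TG and 32.5, 35.4 and 54.6 CPM in the DRG (edgeR adjusted p 0.181). Mole TG 1 again sat among the DRG libraries for Dnajc3.

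Among the 8 constitutive Hsp70, Hsp90 and Hsp110 genes, 3 were higher in the mole DRG, 0 in the TG and 5 were not called. Hspa8 (Hsc70), the housekeeping Hsp70 of the cytosol, was at 2010, 1680 and 1380 CPM in mole TG 1, 2 and 3 and at 4540, 3210 and 4410 CPM in mole DRG 1, 2 and 3. Each DRG library was above every TG library, and the difference was 2.4-fold (log2 -1.26, SE 0.27, edgeR adjusted p 0.0186). Hspa4 (Apg-2), an Hsp110 that works with Hspa8, was at 140, 69.4 and 84.2 CPM in the TG and 310, 175 and 334 CPM in the DRG (log2 -1.48, SE 0.37, edgeR adjusted p 0.029). Hspa14, an Hsp70 bound to ribosomes, was at 10.9, 12.4 and 10.6 CPM and at 26.5, 26.7 and 33.9 CPM, with little spread in the TG (log2 -1.36, SE 0.29, edgeR adjusted p 0.0183). Hsp90ab1, the constitutive Hsp90, was at 2290, 1300 and 1130 CPM in the TG and 2920, 3210 and 2630 CPM in the DRG. Its ganglia did not overlap, and the difference missed the threshold (log2 -0.89, SE 0.32, edgeR adjusted p 0.0785).

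Of the 10 mitochondrial members, 1 was higher in the mole TG, 2 were higher in the DRG and 7 were not called. Hspa9 (mortalin), the Hsp70 that pulls proteins into the matrix, was at 88.8, 94.5 and 110 CPM in mole TG 1, 2 and 3 and at 313, 189 and 284 CPM in mole DRG 1, 2 and 3 (log2 -1.42, SE 0.27, edgeR adjusted p 0.0148). Hspd1 (Hsp60), the chaperonin of the matrix, was at 139, 120 and 114 CPM in the TG and 280, 222 and 275 CPM in the DRG (log2 -1.06, SE 0.23, edgeR adjusted p 0.0206). Both sets of libraries were well apart. Hspe1 (Hsp10), the lid of the Hspd1 chamber, was not called, at 133, 47.5 and 35.9 CPM against 90.3, 114 and 84.1 CPM, and mole TG 1 was its highest library. Dnajc4 was at 28.5, 30.9 and 27.2 CPM in the TG and at 10.1, 8.98 and 10.6 CPM in the DRG, narrow ranges on either side of a 2.92-fold difference (log2 1.55, SE 0.28, edgeR adjusted p 0.0131).

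J proteins of vesicles and endosomes gave the largest change of any member. Dnajc6 (auxilin), the neuronal J protein that recruits Hspa8 to clathrin-coated vesicles, was at 25, 19.6 and 28.6 CPM in mole TG 1, 2 and 3 and at 214, 146 and 317 CPM in mole DRG 1, 2 and 3. The difference was 9.24-fold (log2 -3.21, SE 0.36, edgeR adjusted p 0.00756), and the lowest DRG library was several times the highest TG library. Dnajc13 (RME-8), which acts with Hspa8 on endosomes, was at 32, 31.3 and 32.1 CPM in the TG and at 93.4, 83.3 and 105 CPM in the DRG. The TG libraries were almost equal (log2 -1.56, SE 0.24, edgeR adjusted p 0.00946). Dnajc27 (Rbj), a Rab-like GTPase with a J domain, was at 7.4, 4.65 and 8.62 CPM and at 28, 15.8 and 40.3 CPM (log2 -2.03, SE 0.45, edgeR adjusted p 0.0203). Dnajc5 (cysteine string protein), which guards synaptic vesicle proteins, went the other way, at 150, 145 and 122 CPM in the TG and 73.6, 103 and 76.5 CPM in the DRG. It did not overlap between ganglia and was not called (log2 0.72, SE 0.25, edgeR adjusted p 0.0721).

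The 13 J proteins of the cytosol and nucleus gave 1 higher in the mole TG, 2 higher in the DRG and 10 not called. Dnajc12, which helps fold the aromatic amino acid hydroxylases, was at 4.03, 3.63 and 3.31 CPM in mole TG 1, 2 and 3 and at 15.2, 12.9 and 21.8 CPM in mole DRG 1, 2 and 3 (log2 -2.19, SE 0.37, edgeR adjusted p 0.0116). Dnaja2, a constitutive relative of Dnaja1, was at 152, 90.3 and 96.3 CPM in the TG and 338, 199 and 318 CPM in the DRG (log2 -1.34, SE 0.32, edgeR adjusted p 0.0262). Both genes were higher in every DRG library, as Dnaja1 was. Dnajb2 (HSJ1), a J protein of neurons that delivers ubiquitinated clients to the proteasome, had the opposite direction. It was at 144, 184 and 197 CPM in the TG and at 83.8, 69.7 and 88.8 CPM in the DRG (log2 1.12, SE 0.25, edgeR adjusted p 0.0206).

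Of the 9 members in the class of endoplasmic reticulum J proteins and Hspa13, 8 passed the filter, 1 of them higher in each ganglion. Hspa13 (Stch), a small Hsp70 relative of the microsomes, was at 16.9, 5.58 and 6.44 CPM in mole TG 1, 2 and 3 and at 45.7, 42.9 and 115 CPM in mole DRG 1, 2 and 3. It had the second largest difference among members, 7.09-fold (log2 -2.83, SE 0.59, edgeR adjusted p 0.0178). Dnajb14, a membrane J protein, was at 17.6, 16.4 and 13.1 CPM in the TG and 5.98, 5.37 and 8.7 CPM in the DRG (log2 1.22, SE 0.36, edgeR adjusted p 0.044). Its call was lost in each of the 6 fits that left out 1 library. Dnajb12, the most counted of the class, was not called, at 197, 90.1 and 84.7 CPM against 101, 118 and 97.2 CPM.

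Members known mainly from testis had means over the mole libraries from 0.272 CPM (Hspb9) to 37.8 CPM (Hspa1l). Of the 5 that passed the filter, 0 were called by the same edgeR test, with 2 under 0.05 before adjustment. Hspa1l, the most counted of them, had 14.3, 55.7 and 45 CPM in the TG and 43.6, 55.7 and 12.4 CPM in the DRG, an overlap in both directions. The 7 rows named after human pseudogenes of Hsp90 and Hsp70 held 1170 to 1830 CPM in the TG and 1120 to 2820 CPM in the DRG, and 0 of 7 were called or under 0.05 before adjustment. The highest, Hsp90ab3p, was at 1180, 946 and 848 CPM and at 1290, 1510 and 755 CPM. Mole reads were placed on human, dog and mouse transcripts, so counts under these names may belong to Hsp90aa1, Hsp90ab1 or Hsp90b1. Adding each pseudogene row to its parent gave counts of 7 and 15 for TG and DRG, as before. Hspb9, Hspb3 and Dnajc22 did not pass the filter in the mole, and Dnajb8 did not in the mouse. Near-identical copies exist for some named genes too. In the mouse transcripts of GENCODE M21, some 36-base windows of a coding sequence also lie in another gene, mostly in pseudogenes. The share was 97.8% for Hspb1, 93.8% for Hspa8, 93% for Dnaja1, 89.8% for Hsp90aa1 and 73.9% for Hspd1. It was 0% for Dnajc10, Dnajc12 and Dnajc13. The reads were aligned to other transcript sets, and the part of such copies in the counts was not tested.

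Base composition moved with the mole result. Members higher in the TG had a median GC content of 57.4% (range 42.4 to 61.7, n = 7) in the mouse transcript of the same name, those higher in the DRG 45.9% (39.8 to 51.2, n = 15) and those not called 49.8%. Across the 67 members with a value, GC content and the mole log2 fold change had a Spearman correlation of 0.68, against 0.57 across 13665 genes. These genes share libraries and are not independent replicates. In the mouse the correlation was -0.43 across 69 members and -0.27 across 17170 genes. With offsets that take out the trend on GC in each library, 2 members were higher in the TG (Dnajb14 and Dnajc5) and 6 in the DRG (Dnajc6, Dnajc10, Dnajc12, Dnajc27, Hspa13 and Hspa8). The calls over all genes fell as well, to 4.48% for the TG and 7.48% for the DRG. Under these offsets the log2 value of Dnajc6 was -2.58 (edgeR adjusted p 0.0097) and that of Hspa8 -1.31 (0.0295), while Hspb1 went to 1.23 (0.0749), Hspb6 to 0.79 (0.12) and Dnaja1 to -0.9 (0.105). Whether the trend is technical was not tested.

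**Figure D3:**
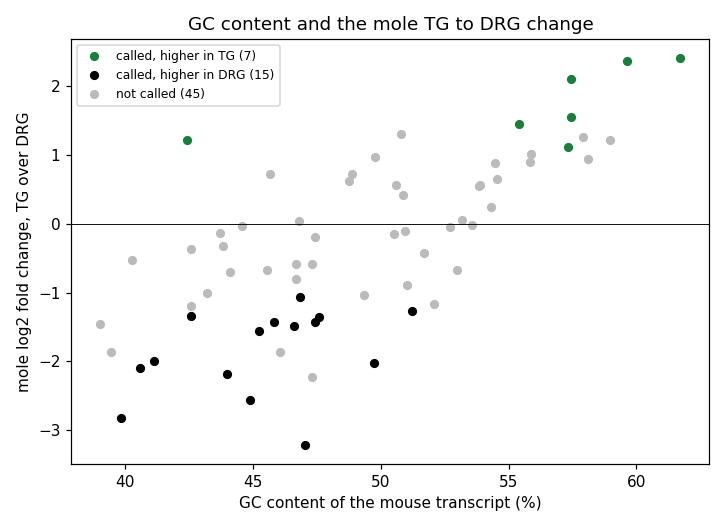
Mole log2 fold change, TG over DRG (vertical), against the GC content in percent of the mouse transcript of the same gene (horizontal) for 67 members, 1 point per gene. Green points (7, higher in TG) lie at a median of 57.4% GC and black points (15, higher in DRG) at 45.9%. Dnajb14 is the green point at 42.4%.

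The mouse libraries gave no member past the threshold. By edgeR's quasi-likelihood test 0 of 69 members were higher in the libraries labelled TG, where 1.12% of all 21394 genes were called, and 0 in those labelled DRG, where 1.21% were called. Before adjustment 7 members were under 0.05, and DESeq2 called 1, Hspb3. The median log2 fold change was -0.04 over the members and -0.02 over all genes. Members called in the mole were not called here. Hspa8 was at 2920 and 3350 CPM in the libraries labelled TG and 2650 and 2910 CPM in those labelled DRG (log2 0.17, SE 0.14, edgeR adjusted p 0.596). Dnajc6 was at 256 and 273 CPM against 219 and 168 CPM (log2 0.45, SE 0.16, edgeR adjusted p 0.237), and Dnaja1 at 519 and 544 CPM against 399 and 410 CPM (log2 0.39, SE 0.12, edgeR adjusted p 0.166). For all 3 genes both libraries labelled TG were above both labelled DRG by label. In the mole these genes were higher in the DRG, so the order by ganglion turns on the mouse labels.

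A single library, mouse DRG 2, held most of the inducible Hsp70 and Hspb1. Hspa1a was at 10 and 10.2 CPM in mouse TG 1 and 2 by label, and at 8.15 and 54.9 CPM in mouse DRG 1 and 2. Hspa1b was at 14.2, 10.3, 7.44 and 64.4 CPM in the same order, and Hspb1 at 99.4, 67.6, 70.6 and 246 CPM. Mouse DRG 1 was within or below the range of the libraries labelled TG in all 3 genes, so the groups overlapped and none was called (log2 -1.64, -1.55 and -0.92, edgeR adjusted p 0.362, 0.434 and 0.455). Without mouse DRG 2 the log2 fold changes were 0.31, 0.72 and 0.24, and without mouse DRG 1 they were -2.44, -2.4 and -1.56. Over all members, 3 were called for TG and 1 for DRG without mouse DRG 2, where 4.81% and 5.57% of all genes were called, and 5 and 9 without mouse DRG 1, where 9.38% and 12.8% were called. The sum of the immediate early genes was highest in the same library, at 146, 118, 195 and 353 CPM in mouse TG 1, TG 2, DRG 1 and DRG 2. Jun made up much of it, at 92.1, 71.1, 116 and 250 CPM. Fos and Egr1 were highest in mouse DRG 1 instead, at 6.72 and 22.5 CPM, and the rest of the list in mouse DRG 2. The part of these genes was not tested. Other members induced by heat shock factor stood apart less or not at all there. Dnajb1 was at 65, 69.9, 57 and 84.3 CPM, Dnajb4 at 61.1, 61, 72.2 and 74.7 CPM, Hsph1 at 270, 315, 267 and 258 CPM and Hsp90aa1 at 1630, 1830, 1380 and 1260 CPM. Hsp90aa1 was thus lowest in the library that was highest for Hspa1a.

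Members induced by the unfolded protein response were even across the mouse libraries, and 0 of 6 were under 0.05 before adjustment in the edgeR test. Hspa5 was at 237 and 263 CPM in the libraries labelled TG and 238 and 304 CPM in those labelled DRG, and Hsp90b1, in the same order, at 344, 381, 375 and 344 CPM. Dnajc10 was at 118, 118, 118 and 104 CPM, Dnajb9 at 33.2, 35.5, 34.8 and 39.6 CPM, Dnajb11 at 45.1, 54.5, 52.5 and 51.4 CPM, and Dnajc3 at 107, 112, 96.3 and 89.7 CPM. The class summed to 924 CPM in either group.

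Of the small heat shock proteins of muscle, Hspb6 and Hspb2 had higher values in both libraries labelled DRG and Hspb7 in both labelled TG, none past the threshold. Hspb6 was at 7.31 and 5.9 CPM in those labelled TG and 8.74 and 15.9 CPM in those labelled DRG (log2 -0.9, SE 0.33, edgeR adjusted p 0.253), and Hspb2 at 2.33 and 3.21 CPM against 4.21 and 5.97 CPM (log2 -0.88, SE 0.32, edgeR adjusted p 0.249). Hspb7 was at 6.99 and 5.46 CPM against 5.06 and 3.7 CPM (edgeR adjusted p 0.445). Skeletal muscle markers had the other direction, with 9 of 16 higher in the libraries labelled TG and sums of 111 to 142 against 66.6 to 86.3 CPM. Markers of myelin and Schwann cells (6 of 8, 10500 to 13700 against 4200 to 4250 CPM) and of the central nervous system (3 of 8, 423 to 459 against 190 to 202 CPM) were higher in the libraries labelled DRG, and 0 of either list in those labelled TG. Their part in the Hspb values was not tested. Hspb3, a partner of Hspb2 in muscle, had 0 and 0 counts in the libraries labelled TG and 40 and 38 counts in those labelled DRG. Set against 3 counts in each library labelled TG, it was at least 16.7-fold higher in those labelled DRG, and edgeR's adjusted p was 0.0584.

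The ganglion difference itself was compared between species in 1 fit of all 10 libraries, scaled together. This common scaling set the interaction 0.47 lower on the log2 scale, as a median over genes, than the difference between the separate fits of the species. With RLE factors the median gap was 0.01. Of 70 members tested, 4 had a TG over DRG change that was higher in the mole and 15 had one that was lower, against 4.39% and 12.6% of 21580 genes. With RLE factors the counts were 6 and 13, against 7.28% and 7.86%: Dnajc4 and Dnajb2 joined the higher ones, and Hspa4 and Hsp90ab1 left the lower ones. The largest lower value was that of Dnajc6, with an interaction of -4.13 on the log2 scale (SE 0.51, edgeR adjusted p 0.00119). Its separate fits gave -3.21 in the mole and 0.45 in the labelled mouse libraries, and the interaction was -3.65 with RLE factors. In order of adjusted p, Dnaja1 came next at -2.87 (SE 0.41, edgeR adjusted p 0.0025), Dnajc13 at -2.4 (SE 0.36, edgeR adjusted p 0.0029), Dnajc10 at -3.12 (SE 0.59, edgeR adjusted p 0.00689) and Dnajc12 at -2.66 (SE 0.51, edgeR adjusted p 0.00731). The mitochondrial pair Hspd1 and Hspa9 had -1.77 and -1.95 (edgeR adjusted p 0.00863 and 0.00977), and the cytosolic Hsp70 proteins Hspa14 and Hspa8 had -1.77 and -1.91 (0.0117 and 0.0118). Hspa13 had -3.56 (SE 0.78, edgeR adjusted p 0.0126). Dnajc27, Dnaja2, Hsph1, Hspa4 and Hsp90ab1 made up the remaining lower values. Those 15 included every class of the mole calls except the small heat shock proteins, which supplied the 4 higher values: Hspb1, Hspb6, Hspb2 and Hspb3. Hspb3 rests on 0 counts in the libraries labelled TG, and its fitted value of 4.74 depends on how zeros are treated. Unlike the other 3, it was not higher in the mole TG. It was at 0.269, 0.186 and 0.174 CPM in mole TG 1, 2 and 3 and at 1.33, 0.586 and 1.14 CPM in mole DRG 1, 2 and 3. Its values were thus higher in the DRG in the mole and, by label, in the mouse. Each of these differences was drawn from the labels of the mouse libraries and from species that also differ in sex, transcript reference and depth, which cannot be told apart from species. No fit was made with the mouse labels exchanged. Without mouse DRG 2 the counts were 0 higher and 4 lower (Dnajc6, Dnaja1, Dnajc13 and Dnajc12), against 0.979% and 2.89% of all genes, and without mouse TG 2 they were 0 and 5, against 1.06% and 4.97%. Without mouse TG 1 they were 1 and 9 (1.17% and 5.97%), without mouse DRG 1 5 and 9 (3.35% and 6.67%). Leaving out mole TG 1 gave 7 and 31 (7.26% and 20.9%). Leaving out mole DRG 2 gave 4 and 23 (10.3% and 18.7%).

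**Figure D4:**
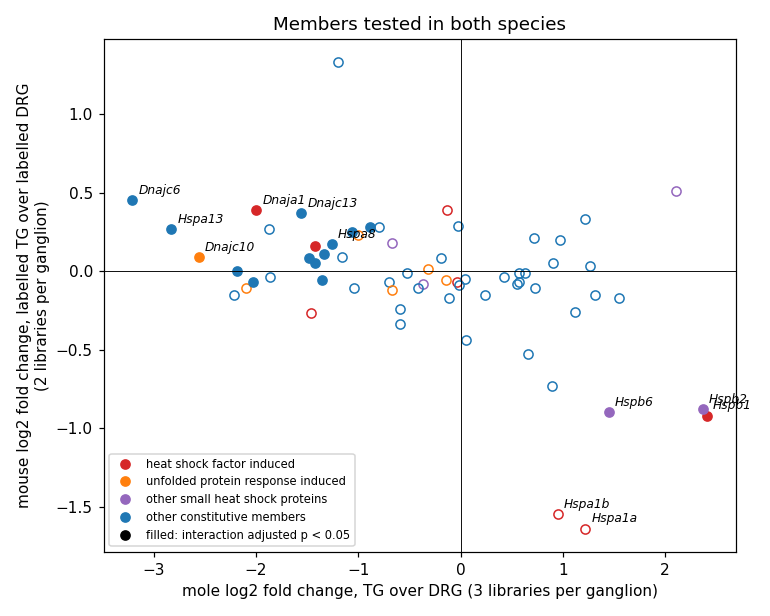
Log2 fold change of TG over DRG in the mole (horizontal) against that of libraries labelled TG over those labelled DRG in the mouse (vertical), 1 point per member tested in both species, with colours for the inducible and small heat shock classes and filled points for an interaction with edgeR adjusted p under 0.05. Filled points lie at the left, from Dnajc6 at -3.21 to Hsp90ab1 at -0.89, with mouse values from -0.07 to 0.45, and at the lower right, where Hspb1, Hspb2 and Hspb6 are between 1.45 and 2.41 in the mole and from -0.92 to -0.88 in the mouse. Hspb3, under the filter in the mole, is not drawn.

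Levels of different members were compared per length in the mouse, with the longest protein-coding transcript of each gene in GENCODE M21. The transcript made in the ganglia may be shorter, so the order of members rests on this choice. Per kilobase of transcript, Hspa8 had 1240 ± 120 CPM and Hsp90ab1 1210 ± 153 CPM (SD, n = 4 libraries), and the ranges of these constitutive leaders overlapped. The inducible Hsp90aa1 came next at 465 ± 77.8 CPM per kilobase, below both and above all others without overlap. Hspa12a, an atypical Hsp70 of neurons (156 ± 8.83), Hspb8 (145 ± 17.4), Hspb1 (130 ± 91.2) and Hsp90b1 (128 ± 6.98) followed with overlapping ranges. Hspa1a and Hspa1b lay far below their constitutive relative, at 2.75 to 18.5 and 2.65 to 23 CPM per kilobase. Dnaja1 was the highest J gene at 83.2 ± 13.2 CPM per kilobase.

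Genes of the same pathways that are not heat shock or DnaJ genes were counted as well. Of all genes tested in the mole, 10.5% were called for the TG and 12.9% for the DRG. Of 31 heat shock factors and cochaperones in the mole table, 6 were called for TG and 5 for DRG. They included Cryab, the small heat shock protein alphaB-crystallin, at 899, 800 and 518 CPM in mole TG 1, 2 and 3 and 257, 189 and 210 CPM in mole DRG 1, 2 and 3 (log2 1.76, SE 0.29, edgeR adjusted p 0.0113), an order like that of Hspb1. Hsf1, the master regulator of the heat shock response, was at 159, 193 and 158 CPM against 54.1, 81.6 and 60.4 CPM (log2 1.38, SE 0.26, edgeR adjusted p 0.0144). Hsf2, a related factor, was at 21.4, 10.1 and 11.2 CPM against 36.9, 35.7 and 52.4 CPM, higher in the DRG (log2 -1.55, SE 0.38, edgeR adjusted p 0.027). Sgtb, a cochaperone that binds Hsp70 and Hsp90, was also higher in the DRG (log2 -2.74, SE 0.5, edgeR adjusted p 0.0132). It was at 12.1, 7.35 and 7.49 CPM in the TG and at 55.4, 27.5 and 96.5 CPM in the DRG. Of 13 subunits of the TRiC chaperonin and prefoldin, which fold actin and tubulin, 0 were called for TG and 5 for DRG, with a median log2 fold change of -0.79 against 0.11 over all genes. Cct2 was at 102, 99.6 and 90.4 CPM in the TG and 227, 217 and 229 CPM in the DRG (log2 -1.2, SE 0.22, edgeR adjusted p 0.0131). Of 18 further genes of the unfolded protein response, 1 was higher in the TG, the secreted Creld2 (log2 1.66, edgeR adjusted p 0.00859), and 2 in the DRG, the lectin chaperone Canx (log2 -1.48, 0.0284) and the sensor Atf6 (log2 -1.44, 0.0392). In the mouse the same lists gave 1 gene higher in the libraries labelled TG, Bag2 (log2 1.44, edgeR adjusted p 0.02), and 0 in those labelled DRG. The shares over all mouse genes were 1.12% and 1.21%. For the genes of these lists, results with GC offsets or with a library left out are not given here.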

How the data were processed

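Read counts per gene were deposited by the authors as whole numbers, not normalized. Per the study's methods, reads were aligned with Stampy, those of the mole to human, dog and mouse transcripts with counts summed over HomoloGene homologs, those of the mouse to mouse transcripts. The labels' processing notes name DESeq, with no version. The authors' lists of called genes were not used. Library totals are given with the results. In R 4.3.3, edgeR 4.0.16 was run per species on all genes: filterByExpr (minimum count 10), TMM factors, quasi-likelihood test, Benjamini-Hochberg adjustment over all genes tested and a threshold of 0.05. CPM use the TMM factors. The standard error is the log2 fold change divided by the square root of F. Species were compared as an interaction over the 24049 symbols in both tables. The planned promoter search was not run, since no promoter sequences were used here.

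The members and lists were chosen with earlier results of these data known. Named were all stress-induced members, called members of other classes, the most counted member per class, and up to 3 called genes per pathway list. Alternatives were DESeq2 1.42.0, RLE factors, a minimum of 10 counts in all libraries, no filter, a threshold of 0.01, each library left out, a replicate block, the kit as a covariate, TruSeq libraries alone and GC offsets (loess, span 0.3, GC of mouse transcripts from GENCODE M21). Added after seeing the data were leaving out mole TG 1 and mole DRG 2, summing pseudogene rows and a crossed mouse block. The tests were tried on simulated data.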

Additional observations from a re-analysis of the deposited data

Results flagged for a closer look

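In 19 members the ganglion difference differed between the species in the interaction test (edgeR adjusted p under 0.05), taking the mouse labels as given. The values come from the fit of all 10 libraries, whose common scaling set them 0.47 lower on the log2 scale, as a median over genes, than the difference between the separate fits (0.01 with RLE factors). The interaction was -4.13 for Dnajc6, -2.87 for Dnaja1, -2.4 for Dnajc13, -3.12 for Dnajc10, -2.66 for Dnajc12, -1.77 for Hspd1, -1.95 for Hspa9, -1.77 for Hspa14, -1.91 for Hspa8 and -3.56 for Hspa13. It was -2.44 for Dnajc27, -1.91 for Dnaja2, -2.04 for Hsph1, -2.03 for Hspa4 and -1.63 for Hsp90ab1. The positive values were 2.86 for Hspb1, 1.87 for Hspb6, 2.8 for Hspb2 and 4.74 for Hspb3, whose mouse libraries labelled TG hold 0 counts. Hspb3 was under the filter in the mole, where every DRG library was above every TG library. No group had more than 3 libraries, so single libraries were not tested as outliers.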

How the results depend on the processing

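In the mole, members higher in TG and in DRG numbered 7 and 15, against 10.5% and 12.9% of all genes. They were 1 and 3 at a threshold of 0.01 (1.07% and 1.37% of all genes). With GC offsets they were 2 and 6 (4.48% and 7.48%), also with the replicate block added (4.11% and 6.44%). Without mole TG 1 and mole DRG 2 they were 18 and 32 (33.3% and 29.9%). With 1 library left out they ran from 1 to 9 and from 2 to 28 (1.05 to 18.5% and 1.07 to 18.8%). The replicate block alone gave 6 and 17 (9.01% and 11%). Same-numbered mole samples had deviations correlated at 0.389, 0.498 and -0.175, so the numbers were not taken as pairs. In the mouse, members higher in the libraries labelled TG and DRG numbered 0 and 0. Hspb3 was the 1 call, for DRG, with DESeq2, no filter, the replicate block, GC offsets or both together. A crossed block (same-numbered correlation -0.111) gave 1 and 3, and leaving out 1 library 0 to 5 and 0 to 9, where a lone library is assumed to vary like the others. Members with a change higher or lower in the mole than in the mouse numbered 4 and 15, 0 and 7 at a threshold of 0.01, 28 lower with TruSeq libraries alone, 0 to 7 and 4 to 31 with 1 library left out, and 3 and 18 with the replicate block. Of all genes, 4.39% had a change higher in the mole and 12.6% a lower one in the main fit. The shares were 0.806% and 4.24% at a threshold of 0.01, 5.89% and 19% with TruSeq libraries alone, and 3.26% and 11.2% with the replicate block. In the mouse the crossed block called 4.51% of all genes for TG and 6.16% for DRG by label. The causes of these shifts were not tested.

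Directions turned in uncalled members. With GC offsets, and with the block added, the mole log2 fold change was 0.6 and 0.64 for Hsp90aa1, 0.46 and 0.42 for Hsp90b1, -0.02 and -0.07 for Hspa1b and 0.09 in both for Hspa5, and in the mouse -0.02 for Dnajc10 and -0.11 for Hsp90b1 in both. Requiring 10 counts everywhere gave 0.06 for Dnajb1 in the mole. With 1 library left out, the mole range was -0.36 to 0.16 for Dnajb1 and -0.85 to 0.14 for Hsp90aa1. In the mouse it was -0.32 to 0.24 for Dnajb1, -0.19 to 0.08 for Dnajb11, -0.05 to 0.09 for Hsp90b1, -2.44 to 0.31 for Hspa1a, -2.4 to 0.72 for Hspa1b, -0.28 to 0.07 for Hspa5 and -1.56 to 0.24 for Hspb1. With 3 or 2 libraries per group, a member that missed the threshold is not shown to be equal between ganglia.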
